A study of Mus musculus with 6 samples.

Results

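The cyclin-dependent kinase (CDK) inhibitors are 7 genes, Cdkn1a, Cdkn1b, Cdkn1c, Cdkn2a, Cdkn2b, Cdkn2c and Cdkn2d, and were measured here by 9 of the 22690 probe sets on the array. They were taken by gene symbol from the platform annotation, and every probe set that carries 1 of these symbols is given. Cdkn1a, which encodes p21, rose with tamoxifen, which restores p53, in each cell line, whereas none of the other 6 genes passed the test upward and a probe set each of Cdkn1b and Cdkn2d fell. The samples came from KPR4, KPR5 and KPR8, which are 3 cell lines derived from mouse lung adenocarcinomas (strain C57/B6-129SvJae) and grown in DME medium with serum. Each line was profiled once after 250 nM 4-OH tamoxifen in ethanol, given 24 h before RNA was collected, and once after ethanol vehicle, which makes 6 arrays. Per the labels, tamoxifen reactivates p53 expression in these cells, and the alleles behind this are not named there. No array of cells that lack the restorable p53 was among the samples, so the drug itself and the restored p53 cannot be told apart. The labels do not say if the 2 cultures of a line were grown at the same time, and each line stands for 1 tumour-derived culture.

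CDK inhibitors hold the cell cycle by binding the kinases that drive it. The CIP/KIP proteins, p21 (Cdkn1a), p27 (Cdkn1b) and p57 (Cdkn1c), bind complexes of a cyclin with its kinase, mainly those of CDK2. The INK4 proteins, p16 (Cdkn2a), p15 (Cdkn2b), p18 (Cdkn2c) and p19 (Cdkn2d), bind CDK4 and CDK6 and keep D-type cyclins off them. Both routes leave the retinoblastoma protein unphosphorylated, so that it holds back E2F factors. Cdkn1a is a classical direct target of p53. Cdkn2a also encodes, in another reading frame, ARF, which binds the ubiquitin ligase MDM2 and so protects p53.

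Cdkn1a has 2 annotated starts, and RefSeq's promoter windows of both (GRCm38.p6, 250 bases before the start to 50 after it) are printed because this is the inhibitor that rose. The p53 consensus half-site was searched for by its name on both strands, and a pair of half-sites without a spacer was allowed 1 letter off in 20. In the upstream window, at chr17:29090729-29091028 on the plus strand, the capitals mark a run that matches such a pair at 19 of 20 letters.

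Cdkn1a upstream start: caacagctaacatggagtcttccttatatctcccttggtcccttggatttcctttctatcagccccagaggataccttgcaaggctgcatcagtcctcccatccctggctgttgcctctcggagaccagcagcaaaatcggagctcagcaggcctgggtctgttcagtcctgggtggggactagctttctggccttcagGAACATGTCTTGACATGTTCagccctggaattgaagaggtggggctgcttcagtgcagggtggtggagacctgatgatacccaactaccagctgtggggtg

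The run lies at chr17:29090928-29090947, ending 32 bases before the upstream start and 2822 bases before the downstream one. A pair as close to the consensus is in 0.0883% of the 32851 promoter windows of the table, and in 1 of the 9 windows of the inhibitor genes. In the downstream window, at chr17:29093519-29093818 on the plus strand, the capitals mark 2 copies of GGGCGG, the core of the GC box that SP1 binds, and a TATAA.

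Cdkn1a downstream start: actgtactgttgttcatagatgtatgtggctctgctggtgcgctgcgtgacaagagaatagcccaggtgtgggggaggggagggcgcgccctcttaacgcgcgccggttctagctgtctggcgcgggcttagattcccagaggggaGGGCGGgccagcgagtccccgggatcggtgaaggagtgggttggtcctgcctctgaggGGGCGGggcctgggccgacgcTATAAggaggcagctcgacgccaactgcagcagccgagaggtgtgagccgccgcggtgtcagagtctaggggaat

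This window holds no p53 half-site. Single half-sites are in 8.36% of all windows, and among the inhibitors only the upstream Cdkn1a window, with 2, and the Cdkn2d window, with 1, have them. The Cdkn2d half-site lies at chr9:21291302-21291311 on the minus strand and is shown because that gene fell.

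Cdkn2d half-site: GGGCTTGCCT

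GC box cores (GGGCGG, either strand) are in 7 of the 9 windows and in 35.7% of all windows. The windows cover 6 of the 7 genes, Cdkn1c being the other one. These matches are letters in a fixed window and were not tested as binding sites. The files do not say which of the Cdkn1a starts a probe set reads.

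The arrays were alike in overall level, with medians between 4.56 and 4.63 on the log2 scale. The 27 Bacillus subtilis control probe sets, which mark background, did not exceed 2.84. All 7 epithelial markers looked for passed the expression filter (log2 4 or above on at least 3 arrays), with the keratin gene Krt18 between 12.93 and 13.50. Of the lung lineage markers only Aqp5 passed it, and Nkx2-1 lay between 2.40 and 2.83 and Sftpc at 3.13 or less, so these lung lineage markers were at or near background. The leukocyte marker Ptprc was at background, between 1.62 and 2.05, while 3 of 7 leukocyte and 3 of 7 fibroblast markers passed the filter, as did 0 of 4 endothelial ones. Of these markers Cldn4 (0.89) and Cd68 (1.02) passed the test upward, and Cd68 passed the filter through its tamoxifen arrays alone, so it could be tested only because it was high there. RNA integrity, read as 3' minus 5' signal of Gapdh control probe sets, moved with tamoxifen by 0.24, 0.29 and -0.40 in KPR4, KPR5 and KPR8. Read from beta-actin control probe sets it moved by 0.16, 0.39 and -0.07, so the shift in KPR8 was much smaller there. Its part in the results below was not tested.

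**Figure D1:**
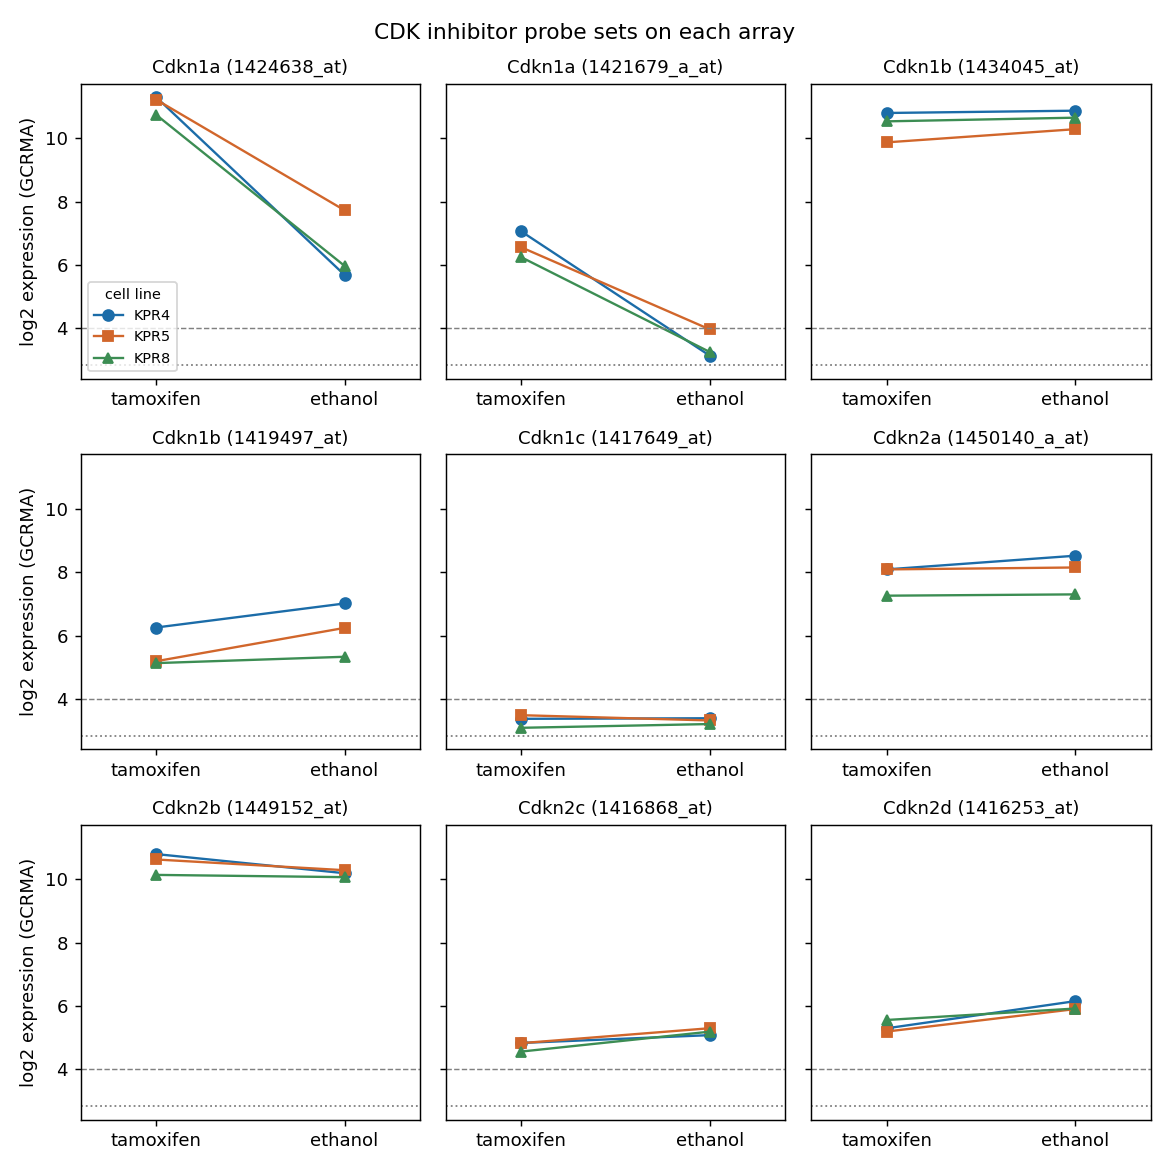
Log2 expression (y axis) of the 9 CDK inhibitor probe sets on the tamoxifen and ethanol array of each line, joined by line. The dashed line is the filter level of 4 and the dotted line the highest Bacillus control, 2.84. Both Cdkn1a probe sets are higher on each tamoxifen array than on any ethanol array, and Cdkn1c stays under the filter.

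Cdkn1a rose with tamoxifen on both of its probe sets and in each line. The brighter probe set, 1424638_at, read 11.31, 11.23 and 10.75 in tamoxifen-treated KPR4, KPR5 and KPR8, against 5.69, 7.73 and 5.97 in their ethanol controls. The groups did not overlap, and the lowest tamoxifen array was 3.02 above the highest ethanol array. The treated arrays lay within 0.56 of each other, while the ethanol arrays spanned 2.04 because KPR5 was the high one. The rise was accordingly smallest in KPR5 (11.3-fold), larger in KPR8 (27.4-fold) and largest in KPR4 (49.2-fold). Whether the lines differ in this rise could not be tested with 1 array each.

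In the limma fit, with cell line and treatment as terms, the mean log2 change of this probe set was 4.63 ± 0.28 (n = 3 lines, adjusted p = 3.8e-07). Here and below, the value after ± is limma's moderated SE, which borrows variance from other genes. The 3 changes by line had a wider spread, with an SD of 1.07. The mean change is 24.8-fold, and it was the second highest of 13169 probe sets tested. The dimmer probe set, 1421679_a_at, read 7.06, 6.56 and 6.25 with tamoxifen, against 3.14, 3.97 and 3.25 with ethanol. It passed the filter through its treated arrays alone, so it could be tested at all only because it was high there. Its change was 3.17 ± 0.22 (adjusted p = 1.4e-06), or 9.01-fold, and in KPR4, KPR5 and KPR8 it was 3.93, 2.59 and 2.99. The lines thus kept the same order on both probe sets, KPR4 first and KPR5 last. The ethanol values of the dimmer probe set were 0.30 to 1.13 above the highest background control, so that its fold is approximate.

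Of the 8 inhibitor probe sets that passed the filter, 2 rose and 2 fell at an adjusted p under 0.05, and 4 did not pass. Over all 13169 probe sets tested, 15.8% changed, 8.01% upward and 7.81% downward. Both rises were those of Cdkn1a, and its dimmer probe set was among the 8 only because it was high with tamoxifen. Fitted by limma without the filter, that probe set had a change of 3.17 (adjusted p = 5.8e-06). The median change of the 8 was -0.19, beside -0.02 over all probe sets.

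The second CIP/KIP gene, Cdkn1b, encodes p27, which restrains CDK2 in resting cells and is controlled largely through protein turnover. Its probe sets differed. The dimmer one, 1419497_at, read 6.25, 5.19 and 5.13 with tamoxifen in KPR4, KPR5 and KPR8, against 7.01, 6.24 and 5.33 with ethanol. Each line was lower with the drug, but the groups overlapped because KPR4 was high under both treatments. The change was -0.67 ± 0.19 (adjusted p = 0.029), a level 1.59-fold lower, and it was largest in KPR5 (-1.05) and smallest in KPR8 (-0.20). With KPR4 left out the change was -0.63 (adjusted p = 0.111), and with KPR5 left out it was -0.48 (adjusted p = 0.157), so either line ends the call.

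The brighter Cdkn1b probe set, 1434045_at, read 10.80, 9.87 and 10.54 with tamoxifen, against 10.87, 10.29 and 10.65 with ethanol. It too was lower in each line, by 0.07 to 0.42, and did not pass the test (-0.20 ± 0.12, adjusted p = 0.279). The 95% interval of its change ran from -0.46 to 0.06, and that of the dimmer probe set from -1.08 to -0.26. The mean of both probe sets had a change of -0.44 (adjusted p = 0.054).

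Cdkn1c, the imprinted gene of p57, was low on every array. Its probe set, 1417649_at, read 3.37, 3.49 and 3.09 with tamoxifen and 3.39, 3.32 and 3.21 with ethanol. These values were above the highest background control but under the filter. Fitted without the filter, its change was 0.01 ± 0.12 (adjusted p = 0.976).

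**Figure D2:**
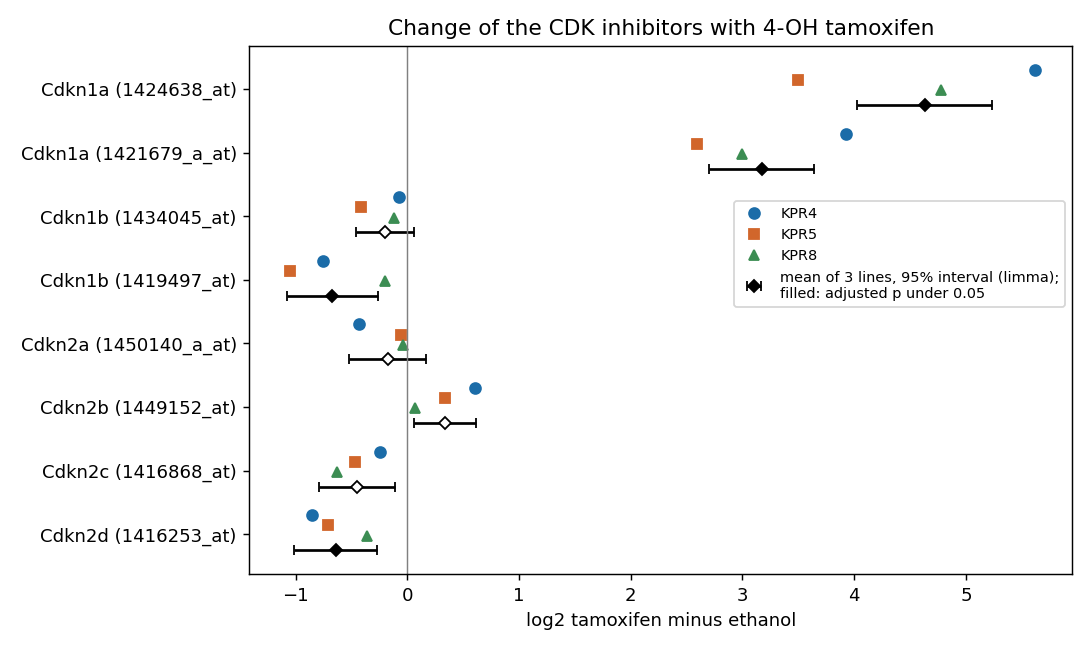
Change with treatment (x axis, log2 tamoxifen minus ethanol) of the 8 probe sets that passed the filter, by line, with the limma mean and its 95% interval; filled diamonds passed an adjusted p of 0.05. Cdkn1a lies between 2.59 and 5.62 in every line, and each other probe set between -1.05 and 0.60.

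Among the INK4 genes, Cdkn2d fell and the other 3 did not pass the test. Cdkn2d, encoding p19INK4d, read 5.30, 5.19 and 5.56 with tamoxifen in KPR4, KPR5 and KPR8, against 6.15, 5.90 and 5.92 with ethanol. All treated arrays were below all ethanol arrays. The change was -0.64 ± 0.17 (adjusted p = 0.022), a level 1.56-fold lower, and it was -0.86, -0.71 and -0.36 in the 3 lines. Here too the call needed both KPR4, without which the change was -0.54 (adjusted p = 0.176), and KPR5, without which it was -0.61 (adjusted p = 0.056).

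Cdkn2c, encoding p18, read 4.84, 4.83 and 4.56 with tamoxifen, against 5.08, 5.30 and 5.19 with ethanol. Here as well the groups did not overlap, yet the change of -0.45 ± 0.16 missed the threshold (adjusted p = 0.073). Its 95% interval ran from -0.79 to -0.11. Separate groups of this kind were seen in 4 of the 8 inhibitor probe sets, those of Cdkn1a, Cdkn2c and Cdkn2d, and in 15% of all probe sets tested. For the dimmer Cdkn1a probe set this was fixed in advance, because it passed the filter through its treated arrays alone. The 15% holds probe sets of that kind too.

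Cdkn2b, encoding p15, was the only INK4 gene with a higher mean under the drug. It read 10.80, 10.63 and 10.14 with tamoxifen, against 10.20, 10.29 and 10.07 with ethanol. The tamoxifen array of KPR8 lay within the ethanol range, so the groups overlapped. The change was 0.34 ± 0.13 (adjusted p = 0.094), with 0.60, 0.34 and 0.07 in KPR4, KPR5 and KPR8. Without KPR8 it passed the threshold (0.47, adjusted p = 0.036).

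Cdkn2a read 8.09, 8.09 and 7.26 with tamoxifen, against 8.52, 8.15 and 7.30 with ethanol. By line the changes were -0.43, -0.06 and -0.04, with KPR4 first, and the fit gave -0.18 ± 0.16 (adjusted p = 0.489). The 95% interval, -0.52 to 0.16, leaves room for a fall but not for a rise of the size seen for Cdkn1a. The single Cdkn2a probe set stands for the whole gene, so p16 and ARF transcripts could not be told apart. The 3 changes per line of each INK4 gene had the same sign, though those of Cdkn2a in KPR5 and KPR8 were very small. The share of all probe sets with such agreement was not counted.

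**Figure D3:**
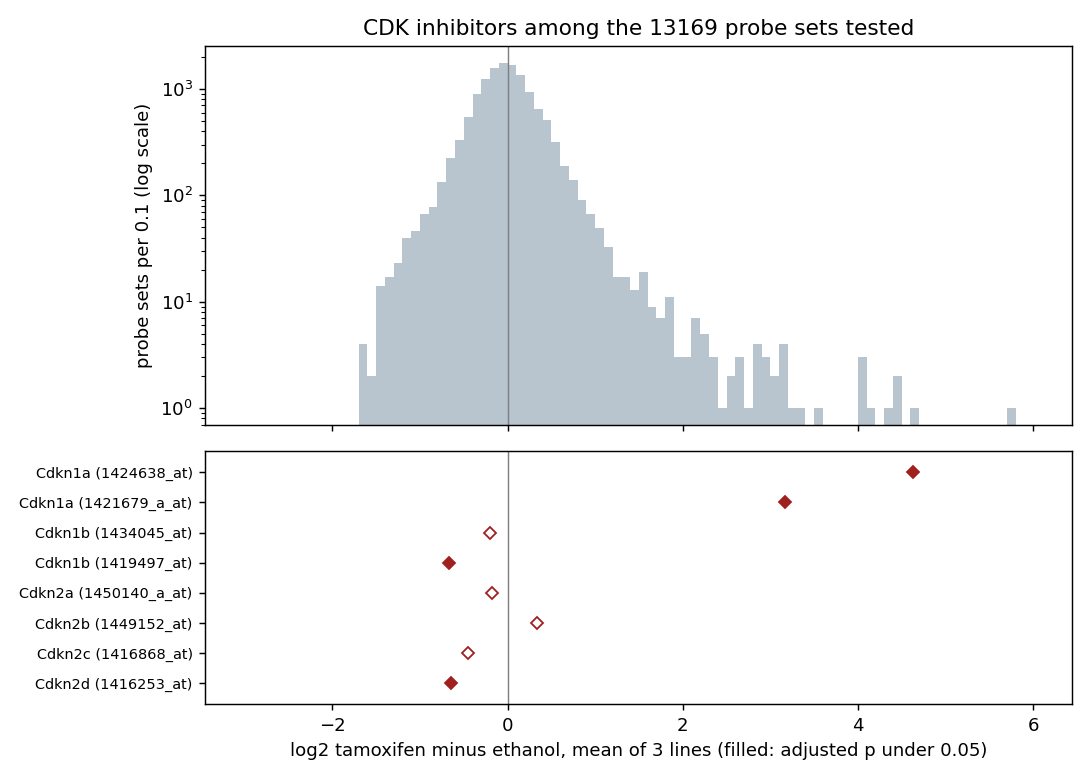
Top, number of probe sets (log axis) by mean log2 change with tamoxifen in bins of 0.1, for all 13169 tested; bottom, the 8 inhibitor probe sets on the same axis, filled where the adjusted p was under 0.05. The Cdkn1a probe sets, at 4.63 and 3.17, lie in the sparse right tail, and the others lie between -0.67 and 0.34. The 2 called lower, of Cdkn1b and Cdkn2d, ranked 12697 and 12645 from the top, toward the low end.

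The lines also differed in their levels of some inhibitors, whichever treatment they had received. In limma's F-test 38.8% of all probe sets differed between lines, and 4 of the 8 inhibitor probe sets did. Cdkn2a was lowest in KPR8, which averaged 7.28 over both arrays, against 8.12 in KPR5 and 8.31 in KPR4 (adjusted p = 0.0029). KPR8 was below KPR5 with KPR4 left out (adjusted p = 0.012) and below KPR4 with KPR5 left out (adjusted p = 8.6e-05). These p-values come from separate fits on fewer arrays and cannot be set against each other. The neighbours KPR4 and KPR5 did not pass when compared without KPR8 (adjusted p = 0.460).

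The dimmer Cdkn1b probe set was highest in KPR4, with a mean of 6.63 over both arrays, against 5.72 in KPR5 and 5.23 in KPR8 (adjusted p = 0.0016). KPR5 and KPR8 did not pass when compared without KPR4 (adjusted p = 0.178). On the brighter probe set the order was another one, with 10.84 in KPR4, 10.60 in KPR8 and 10.08 in KPR5 (adjusted p = 0.0044). There KPR4 and KPR8 did not pass when compared without KPR5 (adjusted p = 0.222). Both probe sets thus put KPR4 first, and they disagree on which line is last.

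For Cdkn1a the brighter probe set differed between lines (adjusted p = 0.035), with a mean of 9.48 in KPR5, 8.50 in KPR4 and 8.36 in KPR8. That call ended under 7 of 11 other settings, among them the removal of KPR5 (adjusted p = 0.654) or of KPR8 (adjusted p = 0.078), and on the dimmer probe set the F-test gave an adjusted p of 0.269. The additive fit compares line means over both treatments, while the gap of KPR5 was seen on the ethanol array. For Cdkn2b, Cdkn2c and Cdkn2d the adjusted p between lines was 0.105, 0.705 and 0.677.

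Genes of the machinery around the inhibitors were then read from 5 lists, beside the 15.8% called, 8.01% higher and 7.81% lower, over all probe sets. The kinases that the inhibitors bind, with their cyclins, had 27 probe sets of 14 genes past the filter, of which 2 rose and 8 fell (37%), with a median change of -0.08. Largest among the falls were those of S and M phase members. Cdk1, the mitotic kinase, had a log2 change of -1.33, Ccna2 had -1.46 and -1.23 on its 2 probe sets, and Ccnb2 had -1.15. The cyclin E genes Ccne2 (-0.78) and Ccne1 (-0.70) and their kinase Cdk2 (-0.67), the main target of p21, were lower as well, and so was Cdk4 on 1 of 3 probe sets (-0.42). In contrast, Ccnd1 (0.65) and Ccnd2 (0.51), cyclins of CDK4 and CDK6, each rose on 1 probe set, and their other kept probe sets, 2 and 6 in number, had changes between 0.02 and 0.44 that did not pass. Without KPR4 the calls of Ccnd1, Ccnd2, Ccne1, Ccne2, Cdk2 and Cdk4 ended, leaving 4 calls in the list, all lower. Those of Ccnd2, Ccne1, Cdk2 and Cdk4 ended without KPR8 too.

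Downstream of the kinases, the list of pocket proteins, E2F factors and the DREAM complex had 17 probe sets of 14 genes past the filter. Of these 1 rose and 5 fell (35.3%), with a median of -0.31. The one that rose was Rb1 itself, the retinoblastoma gene, by 1.94 ± 0.17 (adjusted p = 1.6e-05): it averaged 7.19 with tamoxifen and 5.26 with ethanol. Its relative Rbl1, encoding p107, fell by 0.85 and 0.64 on its 2 probe sets, and Rbl2, encoding p130, had a change of 0.43 (adjusted p = 0.095). Mybl2 (-1.32), the B-MYB factor of the mitotic program, E2f8 (-1.25), an atypical E2F that represses, and Tfdp1 (-0.54), a partner of E2F factors, fell. Without KPR4 both calls of Rbl1 ended, and without KPR5 those of its second probe set and of Tfdp1, so that 3 probe sets were lower in each case.

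The list with the most falls was that of genes for turnover and modification of the inhibitors, where 15 of 30 probe sets fell and 1 rose (53.3%), with a median of -0.49. Skp2, the F-box protein that marks phosphorylated p27 for destruction, fell on 4 of 4 kept probe sets, by 0.72 to 1.06. Its cofactor Cks1b fell on both probe sets, by 0.47 and 0.88, as did the related Cks2. Dtl, the substrate receptor of the CUL4 ligase that degrades p21 on chromatin, fell by 1.36 on its brighter probe set, and Pcna, the clamp that p21 binds, by 0.79. Cdc20 (-1.09 and -0.61, with -0.58 on another probe set that did not pass) and Psme3 (-0.61 and -0.63), a proteasome activator, were the other genes lower. Rchy1, a p53-induced ubiquitin ligase, rose by 0.68 ± 0.16 (adjusted p = 0.011). Without KPR4, 8 probe sets of the list were lower. The calls of Rchy1, of both Psme3 probe sets and of 2 of the 4 of Skp2 were among those that ended there, and 1 Psme3 call ended without KPR5 too.

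Transcriptional regulators of the inhibitor genes had 41 probe sets of 22 genes past the filter, of which 3 rose and 4 fell, with a median of -0.01. These calls make up 17.1%, close to the 15.8% of all probe sets, so the count is no result about the list. Foxo3, a forkhead factor that can activate Cdkn1b, rose by 1.55 and 1.53 on its 2 kept probe sets. Rnf2, a Polycomb subunit, rose by 0.52 on 1 of 2, and Suz12, another Polycomb gene, fell by 0.51 on 1 of 5. The other kept Suz12 probe sets had changes between -0.72 and -0.24, which did not pass. Cbx2, of Polycomb too, was also called lower (-0.67), but it passed the filter through its ethanol arrays alone and could be tested only because it was high there. Id2 (-0.86 on 1 of 2), an inhibitor of E-proteins, and Men1 (-0.61), whose product menin supports transcription of Cdkn1b and Cdkn2c, were lower too. Bmi1, the Polycomb repressor of the Cdkn2a locus, had changes of -0.25 and -0.04, which did not pass. Of these calls, those of Foxo3 held without each line in turn, and each of the others ended without at least 1 line: Cbx2 without KPR8, Id2 without KPR5, Men1 and Suz12 without KPR4 or KPR5, and Rnf2 without KPR4 or KPR8. Other calls were gained. With KPR8 left out, further Suz12 probe sets (-1.19 and -0.63) were called lower. With KPR5 left out, Ezh2 (-0.52) was called lower and a Klf6 probe set (0.76) higher.

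The last list, other genes named for CDK inhibition or for binding an inhibitor, had 17 probe sets of 11 genes past the filter. Both probe sets that rose in it were those of Mdm2, the p53 ligase that ARF binds, with changes of 2.94 and 4.18. The other 15 did not pass, so that 11.8% were called, below the 15.8% of all probe sets. The list's median was -0.09, or -0.01 without KPR4. With KPR8 left out Cdkn2aipnl (-0.83) and a probe set of Npm1 (-0.35) were called lower, and with KPR5 left out a probe set of Cdk2ap1 (-0.51) was. Gadd45a, a stress gene whose protein binds p21, had a change of 0.02 (adjusted p = 0.946), and Cdk2ap1, which encodes a CDK2-binding protein, had -0.38, -0.27 and -0.09 on its 3 probe sets.

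**Figure D4:**
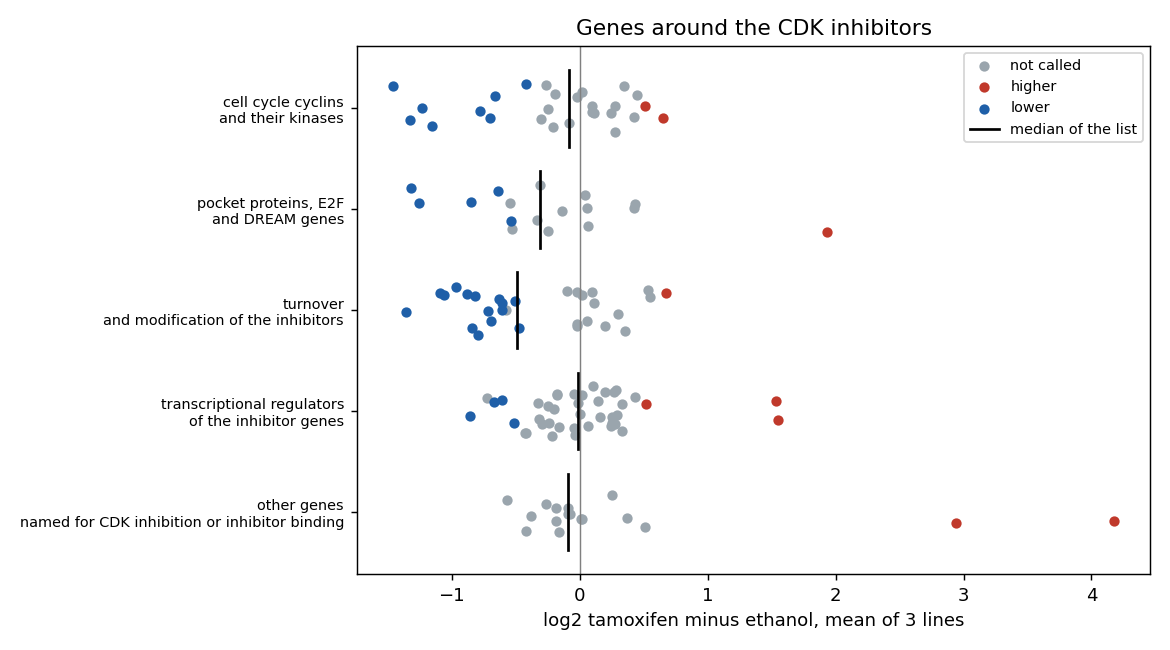
Log2 change with tamoxifen (x axis) of each kept probe set in 5 lists of genes around the inhibitors, coloured by the limma call, with the median of each list as a black bar. The turnover list has 15 of 30 probe sets lower and a median of -0.49, and single genes, Rb1, Foxo3 and Mdm2, stand out on the right.

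The genes whose levels followed each inhibitor most closely over the 6 arrays were found by Pearson's r, among kept probe sets that ranged over log2 1 or more. For Cdkn1a they were Cpped1 (r = 0.990), Fcgbp (0.984) and Rev1 (0.983), with treatment changes of 2.76, 2.52 and 1.34. For Cdkn2b they were Pros1 (0.986), Pepd (0.976) and Hhex (0.971), and for Cdkn2c Chtf18 (0.985), Tcof1 (0.983) and Pold3 (0.980). Cdkn2d was followed by Rbl1 (0.976), Cdc25c (0.961) and Nolc1 (0.958), all lower with the drug. The brighter Cdkn1b probe set went with Bclaf1 (0.987), Foxp1 (0.982) and Arhgap5 (0.979), and Cdkn2a with 4833420G17Rik (0.991), Baz2a (0.990) and Eif2ak2 (0.989). The last 6 had changes between -0.19 and -0.07, so what they share with Cdkn1b and Cdkn2a is mostly their pattern over the lines. The 6 arrays share 3 lines and 2 treatments, and the genes named are the closest of many. The number of probe sets with r above 0.9 was highest for Cdkn2a (144 of 4421) and lowest for Cdkn2d (28 of 4422). It was 111 of 4420 for Cdkn1a, 84 of 4422 for Cdkn2c, 78 of 4420 for Cdkn1b and 42 of 4422 for Cdkn2b.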

How the data were processed

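Expression was measured on 6 one-colour arrays, 1 for each of 3 cell lines under each of 2 treatments. The authors deposited log2 values, 1 for each probe set and array. Per the submitters' processing notes, the tools were GCRMA 2.20.0 and R 2.11.0. GCRMA models background from probe sequence and normalizes between arrays, so a change shared by most genes would not show. Which arrays were processed together, and detection calls, are not given in the sources used here. Platform annotation gave 1 symbol to 20380 of the 22690 probe sets.

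Here 64 array controls were left out, and probe sets at log2 4 or above on at least 3 arrays (13169) were tested with limma (version 3.58.1, under R 4.3.3). Line and treatment were additive terms, and variances were moderated with a trend. P-values, 2-sided, were adjusted by Benjamini and Hochberg's method over every probe set tested, and the threshold was 0.05. Residual degrees of freedom were 2 and the prior added 10.9, so errors lean on other genes. Fits with 1 line left out have fewer arrays, and each leans on other genes to its own degree. Their p-values are therefore not comparable between fits. The cell line is the pairing: deviations of its 2 arrays from the treatment means correlated, across probe sets, at 0.694 (KPR5), 0.718 (KPR8) and 0.862 (KPR4). The procedure was tested on simulated data. The number of arrays limits the precision, and p-values measure the spread between 3 lines, 1 culture per treatment, only after this moderation. Alternatives were other filters, gene-level values, no line term, other moderation, other scaling and each line left out. Named were all members, up to 8 called genes per list by size of change and the 3 closest patterns per member; other genes, such as Cdk4 and uncalled list members, were chosen after their values were seen. Members and lists were chosen with earlier results of these data known. The gene whose expression is restored is not reported here. Promoter sequences are RefSeq's (GRCm38.p6).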

Additional observations from a re-analysis of the deposited data

How the results depend on the processing

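Both Cdkn1a probe sets kept their direction and their call under each alternative in which they were fitted, with a change of 3.90 for the mean of the 2 and 4.14 to 5.20 (brighter) and 2.79 to 3.46 (dimmer) with 1 line left out. The calls of the other members are less firm. Without the line as a replicate block, 34 probe sets were higher and 2 lower over the whole table, and Cdkn1b 1419497_at (-0.67, adjusted p = 0.727) and Cdkn2d (-0.64, adjusted p = 0.354) lost theirs, while both Cdkn1a calls (adjusted p = 0.017 and 0.011) and, of the genes in the lists, those of Mdm2 held. With 1 line left out the changes ran from -0.91 to -0.48 for Cdkn1b 1419497_at, from -0.78 to -0.54 for Cdkn2d and from 0.21 to 0.47 for Cdkn2b. Over all probe sets the counts then ran from 614 to 965 higher and from 548 to 886 lower, and from 2112 to 4289 differing between lines, the low end each time without KPR4. With 1 probe set a gene, 683 were lower and 3210 differed between lines, and 3124 did so when the probe sets of each gene were averaged. These 2 fits tested 7644 features each, not 13169, so their counts are not comparable with those above. The share called with treatment was 19.5% and 18.5% there, beside 15.8% of the 13169. The F statistic between lines of Cdkn1a 1424638_at, 6.35, was 5.91 with no filter, 3.72 for the mean of probe sets, 5.07 without a trend, 4.51 with robust moderation and 5.08 with centred medians, each short of the threshold, and 0.445 to 22.1 with 1 line left out. With 1 line left out that statistic ran from 2.60 to 33.1 for Cdkn1b 1434045_at, 3.91 to 39.6 for 1419497_at and 1.15 to 24.4 for Cdkn2a. The cause of these shifts was not tested. Each alternative kept the sign of the change of the 8 member probe sets that passed the filter, wherever they were fitted (Cdkn1c was fitted only without it), and the median change of all probe sets stayed between -0.03 and 0.00. Saturation was not examined.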

Other observations

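The genomic neighbours of the inhibitor genes on the RefSeq map, looked up after the values above were seen, did not follow them uniformly. Srsf3, a splicing factor gene next to Cdkn1a, had changes between -0.26 and 0.15 on its 6 probe sets, and 0 passed. Mtap, a methionine salvage enzyme next to Cdkn2a, fell on 2 of its 4 probe sets, by 0.74 and 0.40, with -0.27 and -0.20 on the other two. It was lower in KPR4 than in the other lines on each of them under ethanol, whereas Cdkn2a was lowest in KPR8. Gpr19, a receptor gene next to Cdkn1b, changed by -0.57 ± 0.14 (limma, adjusted p = 0.014), reading 3.78, 3.93 and 3.56 with tamoxifen, against 4.31, 4.42 and 4.27 with ethanol. It passed the filter through its ethanol arrays alone, so it could be tested only because it was high there. Faf1, next to Cdkn2c, fell by 0.45 on 1 of 2 probe sets. The neighbours of Cdkn2d did not pass limma's test, with -0.30 for Kri1 (adjusted p = 0.229) and 0.50 for Ap1m2 (adjusted p = 0.053). Kcnq1 and Slc22a18, next to Cdkn1c, stayed under the filter.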
